A study of Mus musculus with 36 samples.

Results

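Ribosomal protein genes encode the proteins that, with ribosomal RNA, build the small (40S) and large (60S) subunits of the cytosolic ribosome. Genes were chosen by symbol alone: Rpl, Rps, Rplp and Rpsa names of cytosolic ribosomal proteins with their paralogs, leaving out the Rps6k kinases and the mitochondrial Mrpl and Mrps genes. Of 63 such genes with a named probe on the array, 57 had a probe detected (detection p under 0.01) on all 6 arrays of at least 1 group of samples, and these 57, of 11529 genes tested in all, are described here. They comprise 22 genes of the 40S subunit and 35 of the 60S subunit. Rpl14, Rpl17, Rpl6, Rps20 and Rps23 were detected on 0 of 36 arrays and Rpsa on 6 of 36, so these 6 were left out. Other family members, Rpl10 and its testis paralog Rpl10l among them, had no named probe and were not analysed here.

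The arrays measured RNA of whole testis from prepubertal C57BL/6 mice, all of them from litters carrying alleles of Brdt, which encodes a testis-specific protein that binds acetylated histones through a pair of bromodomains. At 17 days post-partum (dpp), 4 homozygous knockouts (KO-/-) were compared with 6 heterozygous animals (KO+/-), which themselves carry 1 knockout allele. At 20 dpp, 4 homozygous knockouts were compared with 3 wild types (KO+/+), and 3 animals homozygous for a deletion of the first bromodomain (BD1-/-) with 4 controls, of which 2 were heterozygous (BD1+/-) and 2 wild type (BD1+/+). Each group had 6 arrays, 36 from 24 animals in all, and the animal was taken as the unit. The wild types at 20 dpp all came from litter 1, whereas 2 of the knockouts (148 and 152) came from litter 1 and 2 (139 and 140) from litter 2.

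Ribosomal proteins are made in near-equal numbers in growing cells, and their mRNAs share a pyrimidine-rich start that couples their translation to growth signals. In the male germ line, genes on chromosome X are silenced from the pachytene stage of meiosis onwards, and several X-linked ribosomal protein genes have autosomal copies, often made by retrotransposition, that are known to be used in these cells. Between 17 and 20 dpp the juvenile mouse testis gains late spermatocytes and its earliest round spermatids, while Sertoli cells and spermatogonia make up a falling share of the tissue.

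Signals are given below on the log2 scale after normalization, differences are log2 fold changes, and a gene was called changed at an adjusted p under 0.05 from limma fitted over all 11529 genes. Brdt itself was checked first. At 17 dpp its signal ran from 8.47 to 9.52 in the heterozygous animals (median 8.93) and was 6.71, 6.49, 5.28 and 5.94 in the knockouts. At 20 dpp it was 11.5, 11.61 and 11.44 in the wild types and 7.23, 7.52, 8.28 and 8.23 in the knockouts. Neither knockout group overlapped its controls, with log2 changes of -2.90 and -3.70 (adjusted p = 7.53e-07 and 1.9e-09). With the bromodomain deletion the signal was 10.2, 10.29 and 10.5 against 10.75, 11.59, 11.73 and 11.36 in controls (log2 change -1.03, adjusted p = 0.0323), and since the place of the probe relative to the deleted part is not known here, this does not check the label.

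Ribosomal protein probes were among the brightest on the array: 43 of the 57 lay in the top 10% and 26 in the top 1% of mean signals, and 54 were detected on all 36 arrays. Brightness is a property of a probe and is not read here as the amount of one mRNA against another. Median raw signals of the arrays ran from 118.3 to 152.9, and 17379 to 20016 of 45281 probes were detected per array. With 3 to 6 animals a group, precision is set by the number of animals.

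**Figure D1:**
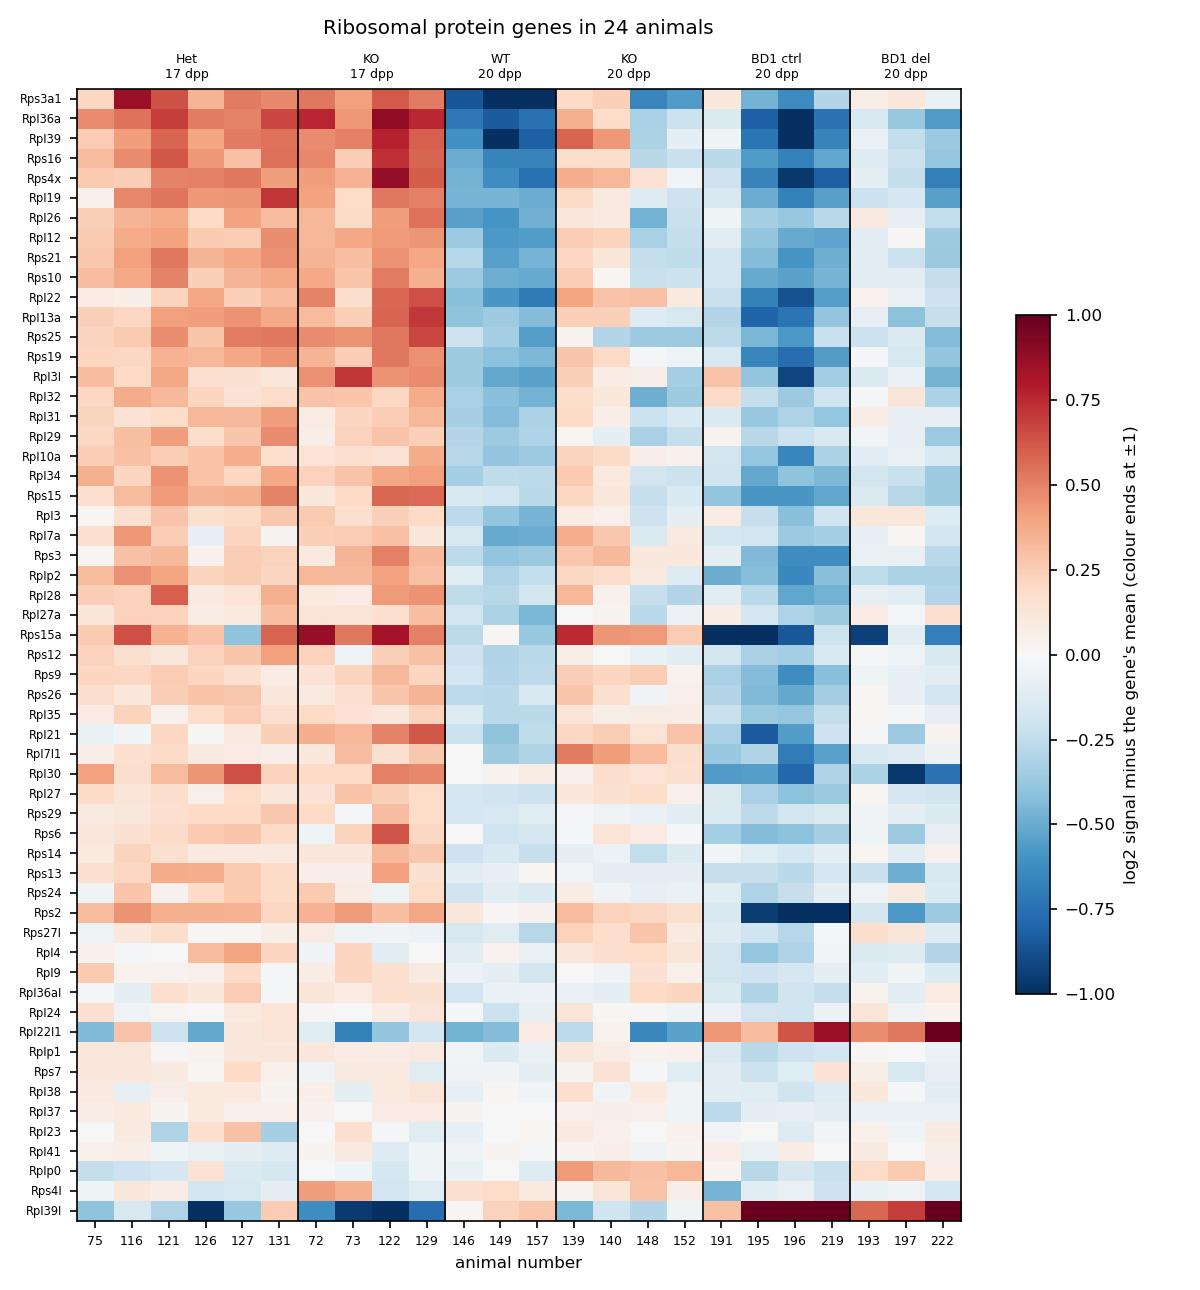
Log2 signal of each of the 57 ribosomal protein genes (rows) in each of the 24 animals (columns), as the difference from the gene's own mean over the 24 animals, with colours ending at ±1. The 17 dpp animals are mostly red and the 20 dpp controls mostly blue. The 20 dpp knockouts lie between them, with animals 139 and 140 redder than 148 and 152. Rpl39l and Rpl22l1 are highest in the bromodomain line. Rpl22l1 was detected on 6 of 6 arrays only in the groups of that line. It was thus kept only through the groups where it is high.

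Taking the 57 genes together, the median deviation from each gene's mean over all animals summarised each testis in 1 value. It was 0.16 to 0.25 in the 17 dpp heterozygous animals and 0.19 to 0.30 in the 17 dpp knockouts, ranges that overlap. The wild types at 20 dpp had the values -0.20, -0.29 and -0.27, and the knockouts of that age 0.17, 0.11, -0.03 and -0.05. All 4 knockouts stood above all 3 wild types, and 1 of them, knockout 139, within the 17 dpp heterozygous range. The same median over all 11529 genes also separated these groups, at 0.07, 0.04, 0.04 and 0.02 in the knockouts and -0.12, -0.18 and -0.20 in the wild types, and in litter 1 knockouts 148 and 152 the ribosomal value lay below it. In whole testis a lower number of cells of a type and less RNA per cell cannot be told apart. With the bromodomain deletion the values were -0.05, -0.09 and -0.18, and in its controls -0.15, -0.37, -0.41 and -0.29, so heterozygous control 191 lay within the range of the deletion animals and the other 3 controls below it. The summed signal of the 57 genes, in units of 1000, was 592.1 to 611.9 in the wild types and 664.6 to 753.6 in the knockouts at 20 dpp, against 761.8 to 798.8 in the heterozygous animals at 17 dpp.

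**Figure D2:**
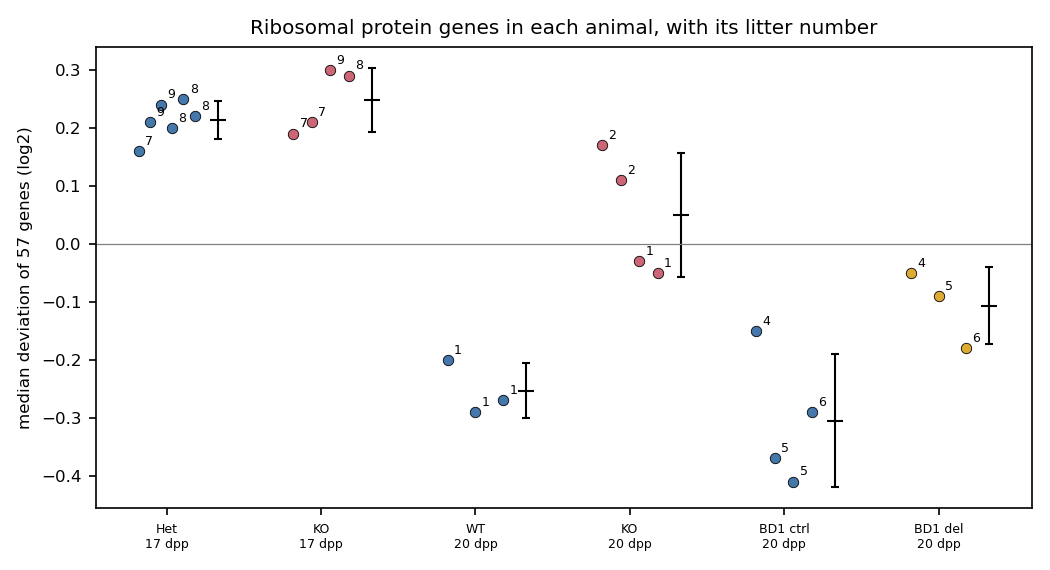
Median deviation of the 57 ribosomal protein genes from their own means (log2) in each animal, grouped as on the x axis. Numbers beside points are litters, and bars show the group mean and SD. Knockouts at 20 dpp range from -0.05 to 0.17 and wild types from -0.29 to -0.20.

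The comparison of knockout with heterozygous testes at 17 dpp asked whether loss of Brdt altered these genes before round spermatids appear. By limma 0 of 57 were called in either direction, where 0.199% of all genes were called higher and 1.14% lower, and 3 of the 57 had an unadjusted p under 0.05, where 15.5% of all genes did. The median log2 change of the 57 was 0.02, against 0.04 over all genes. In 2 of the 57, Rpl21 and Rpl3l, every knockout was above every heterozygous animal, and in 0 below (1.8% and 1.14% of all genes). Their changes were 0.38 (adjusted p = 0.125, limma) and 0.31 (adjusted p = 0.362). Blocking on litter gave 2 higher, and against the median change of all genes 0 were called in either direction (0.13% and 1.86% of all genes).

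At 20 dpp, 33 of the 57 were higher in knockout than in wild type and 0 were lower, where 39.4% of all genes were called higher and 20.7% lower. The median log2 change of the 57 was 0.30, beside 0.24 over all genes tested, with a range of -0.42 to 0.96. In 36 of the 57 every knockout was above every wild type (41.7% of all genes), and in 1 every knockout was below (22.4%). Of the 40S genes 12 of 22 were higher (median 0.28) and of the 60S genes 21 of 35 (median 0.30), a difference that was not tested. Because all genes shifted upward by 0.24 at the median, each change was also tested against that shift, a test chosen after the data were seen. Measured so, 10 of the 57 were higher and 4 lower than the median gene, where 14.9% of all genes were higher and 28.7% lower. The 10 were Rpl39, Rps3a1, Rpl22, Rps4x, Rpl36a, Rpl7l1, Rps16, Rps3, Rpl10a and Rps9, and the 4 were Rps13, Rpl37, Rpl41 and Rps14. Of the 33 genes called higher, only those 10 stayed so against this shift. Among the named genes, calls of Rpl3, Rpl3l, Rplp0, Rplp1, Rplp2, Rps26 and Rps27l were lost.

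Maturation of control testes, read from wild types at 20 dpp against heterozygous animals at 17 dpp, went the other way. By limma 44 of the 57 were lower and 0 higher at 20 dpp, where 45.5% of all genes were lower and 25.9% higher, and the median log2 change was -0.49 against -0.25 over all genes. In 46 of the 57 every 20 dpp animal was below every 17 dpp animal (40.2% of all genes), and in 0 above (24.5%). Of the 57, 5 fell at least 2-fold, where 7.51% of all genes did: Rps3a1, Rpl36a, Rpl39, Rps16 and Rps4x. Tested against the shift of all genes, 28 were lower and 7 higher, where 28.2% and 34.3% of all genes were. These groups differ in age, genotype and litter, which cannot be told apart. They share their wild types with the knockout comparison at 20 dpp and their heterozygous animals with that at 17 dpp, so the signs of these comparisons are not independent.

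With deletion of the first bromodomain, by limma, 8 of the 57 were called higher than in controls and 0 lower, where 3.23% of all genes were higher and 6.4% lower, and the median log2 change was 0.20 against 0.12 over all genes. The 8 were Rpl22, Rpl35, Rpl7l1, Rplp0, Rplp1, Rps2, Rps26 and Rps9. Rpl35 had a log2 change of 0.28 ± 0.07 (adjusted p = 0.00713), and Rps2 one of 0.50 ± 0.15 (adjusted p = 0.0419) with control 191 above every deletion animal. In 16 of the 57 every deletion animal was above every control (11% of all genes), and in 0 below (7.9%). That count of 8 depended on single animals: it was 23 without heterozygous control 191, 1 without deletion animal 193, 3 without control 195, control 196 or deletion animal 197, and 5 without control 219. Litter as a block gave 21, and fitting only these groups gave 0. Against wild-type controls alone 24 were called higher and against heterozygous controls alone 1. These counts are given without those of all genes in the same fits. They cannot tell a move of the ribosomal genes from a move of all calls. Against the shift of all genes Rps9 was the 1 gene called, as higher, and 0 were lower (0.434% and 9.34% of all genes).

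**Figure D3:**
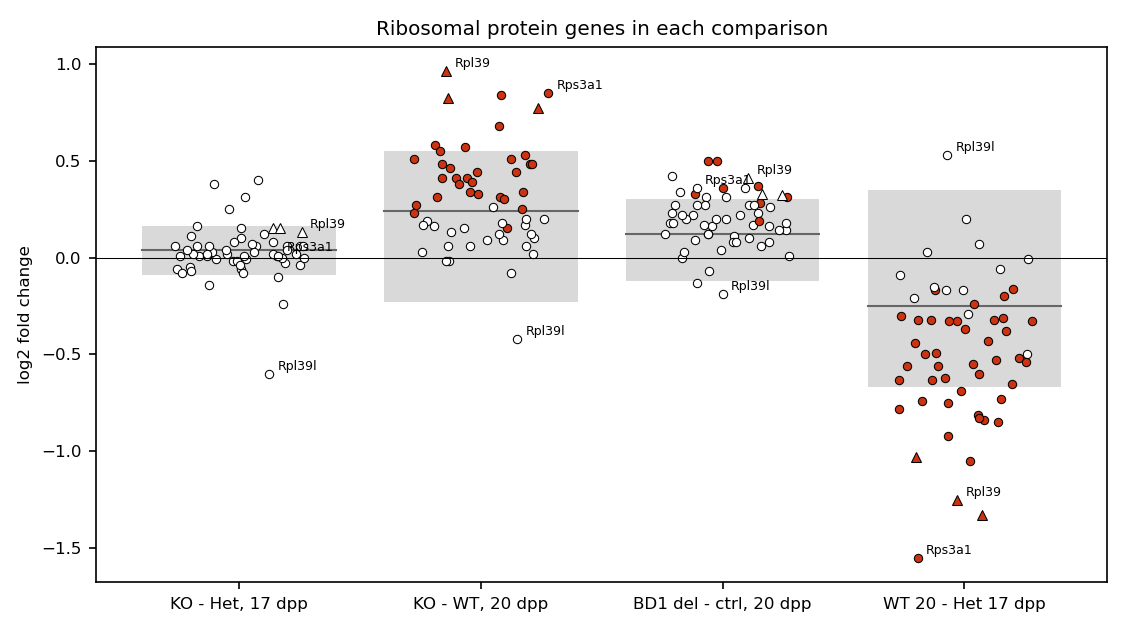
Log2 fold change of each of the 57 ribosomal protein genes in the 4 comparisons of groups. Red points passed an adjusted p under 0.05, triangles are the 3 genes on chromosome X, and grey boxes with a line give the quartiles and median of all 11529 genes. At 20 dpp 33 of the 57 points are red in the knockout comparison, all above 0, and in the maturation comparison 44 are red, all below 0.

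The effect of the knockout differed between the ages. By limma 18 of the 57 had a larger change at 20 than at 17 dpp and 0 a smaller one, where 12.4% and 11% of all genes did, and the median difference was 0.27 against 0.19 over all genes. This count was 3 without wild type 149 or wild type 157, 5 without knockout 139, 6 without knockout 140, 8 without knockout 72 or 73, and 11 without heterozygous animal 121. It was 3 with litter as a block, and against the shift of all genes Rpl10a was the 1 gene called, with the larger change at 20 dpp (1.6% of all genes larger and 15.1% smaller). The counts with an animal left out or litter as a block are given without those of all genes in the same fits. Between the bromodomain deletion and the knockout at 20 dpp the test of the difference called 0 of the 57 (1.09% of all genes higher and 0.156% lower), 1 had an unadjusted p under 0.05 (15.8% of all genes), and the median difference was -0.11 against -0.10 over all genes. Against the shift of all genes it called 0 as well (1.52% and 0.0434% of all genes).

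Rpl39, Rpl36a and Rps4x, the 3 genes on chromosome X, were among the largest changes. Each has an autosomal relative on the array: Rpl39l, a testis-enriched paralog that mice need for normal sperm formation, Rpl36al, a retrotransposed copy of Rpl36a, and Rps4l, a copy of Rps4x that RefSeq annotates as a transcribed pseudogene. Promoter sequence from RefSeq (build GRCm38.p6) is shown for the 5 of these 6 that the table holds, and for Rps3a1, the autosomal gene with the largest fall between the ages. Promoters of ribosomal protein genes are known as a rule to lack a strong TATA box, to start in a pyrimidine tract and to carry sites for factors of the Ets family and for YY1. In each 100-base stretch the annotated start is preceded by 70 bases and followed by 30. Capitals mark CCGGAAG (an Ets-type string, either strand), GCCATCTT (YY1, either strand), CTTTCC (a pyrimidine tract, printed strand) and TATAAA (printed strand). These are exact strings, and shorter or variant sites are not marked. The stretches lie at chrX:37085193-37085292 (minus strand, Rpl39), chrX:134585584-134585683 (plus, Rpl36a), chrX:102189362-102189461 (minus, Rps4x), chr16:10170158-10170257 (plus, Rpl39l), chr12:69184038-69184137 (minus, Rpl36al) and chr3:86142639-86142738 (minus, Rps3a1).
Rpl39: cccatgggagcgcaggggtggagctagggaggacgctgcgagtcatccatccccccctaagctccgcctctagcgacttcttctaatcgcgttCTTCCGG
Rpl36a: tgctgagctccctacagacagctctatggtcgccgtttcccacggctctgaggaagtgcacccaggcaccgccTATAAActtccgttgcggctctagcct
Rps4x: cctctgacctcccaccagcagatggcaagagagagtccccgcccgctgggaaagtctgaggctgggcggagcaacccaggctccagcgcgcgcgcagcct
Rpl39l: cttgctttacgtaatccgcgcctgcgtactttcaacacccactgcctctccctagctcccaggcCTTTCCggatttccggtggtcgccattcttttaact
Rpl36al: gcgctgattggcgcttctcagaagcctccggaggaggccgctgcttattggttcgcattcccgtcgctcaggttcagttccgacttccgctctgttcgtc
Rps3a1: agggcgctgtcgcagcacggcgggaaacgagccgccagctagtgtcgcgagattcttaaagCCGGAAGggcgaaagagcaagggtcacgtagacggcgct

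The stretches of Rps4x and Rpl36al hold none of the 4 exact strings, Rpl39 and Rps3a1 hold CCGGAAG, and Rpl39l holds the pyrimidine string. Rpl36a holds TATAAA, which lies after the annotated start and so not in the place of a TATA box. Over the whole window of 300 bases (250 before the start and 50 from it), 48 of the 57 genes could be matched. CCGGAAG was found in 21 of these 48 windows (43.8%), against 9.93% of the 27025 genes in the table, and CTTTCC in 19 (39.6%), against 16.01%. GCCATCTT was found in 4 (8.3%, against 3.19%) and TATAAA in 5 (10.4%, against 9.77%). Overlaps between strings were not removed, and a match is a description of letters, not of a bound factor. The unmatched genes were Rpl21, Rpl29, Rpl3, Rpl30, Rpl32, Rplp1, Rps14, Rps29 and Rps4l.

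Rpl39 encodes a small protein that lines the exit tunnel of the large subunit. Its signal ran from 13.33 to 13.66 (median 13.54) in the 17 dpp heterozygous animals and was 13.55, 13.58, 13.84 and 13.67 in the knockouts. At 20 dpp it was 12.47, 12.07 and 12.26 in the wild types, and 13.66 and 13.51 in the litter 2 knockouts and 12.76 and 12.98 in the litter 1 knockouts. The 17 dpp groups overlap, all 20 dpp knockouts are above all wild types, and the litter 2 knockouts sit at the level of the 17 dpp animals. The log2 change was 0.96 ± 0.19 (SE) in the knockout at 20 dpp, a 1.94-fold increase (adjusted p = 0.000391, limma), 0.13 ± 0.16 at 17 dpp (adjusted p = 0.751) and -1.25 ± 0.18 with maturation (adjusted p = 3.91e-06). With the bromodomain deletion Rpl39 was 13, 12.83 and 12.7 against 13.03, 12.34, 11.96 and 12.41 in controls, so that control 191 exceeded every deletion animal (log2 change 0.41 ± 0.19, adjusted p = 0.162).

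Rpl36a, a large-subunit protein near the exit site for transfer RNA, followed the same order of groups. It was 12.42 to 12.64 (median 12.47) in 17 dpp heterozygous animals, 11.23, 11.11 and 11.2 in 20 dpp wild types, and 12.3, 12.13, 11.62 and 11.73 in 20 dpp knockouts. No knockout overlapped the wild types, and none reached the 17 dpp heterozygous range. The log2 change was 0.77 ± 0.17 in the knockout at 20 dpp (adjusted p = 0.000957, limma), 0.15 ± 0.15 at 17 dpp (adjusted p = 0.675), 0.33 ± 0.17 with the bromodomain deletion (adjusted p = 0.194) and -1.33 ± 0.16 with maturation (adjusted p = 5.08e-07). Rps4x, which encodes a small-subunit protein, was 12.88 to 13.16 (median 13.09) in 17 dpp heterozygous animals, 12.16, 12.01 and 11.89 in 20 dpp wild types and 13, 12.97, 12.78 and 12.61 in 20 dpp knockouts. Again the 20 dpp groups did not overlap. Its log2 change was 0.82 ± 0.16 in the knockout at 20 dpp (adjusted p = 0.000255) and -1.03 ± 0.15 with maturation (adjusted p = 3.96e-06), and the change in the deletion was 0.32 ± 0.16 (adjusted p = 0.172).

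The 3 X-linked genes were set beside the rest of their chromosome. In the 20 dpp knockout 309 of 416 chromosome X genes tested rose and 43 fell, with a median log2 change of 0.68. With maturation 316 of them fell and 47 rose (median -0.83). In the deletion 11 rose and 41 fell (median 0.26), while none of the 3 ribosomal genes was called. The 3 ribosomal genes had 20 dpp knockout changes of 0.77 to 0.96 and all 3 were called, whereas 30 of the 54 autosomal ribosomal genes were called and their median was 0.27. Beside these counts, 39.4% of all genes were called higher and 20.7% lower in the 20 dpp knockout. With maturation 25.9% were called higher and 45.5% lower, and in the deletion 3.23% and 6.4%. In the deletion the within-litter differences of Rpl39 were -0.03 in litter 4, 0.68 in litter 5 and 0.29 in litter 6, where each litter had 1 deletion animal. In the test of a larger knockout effect at 20 than at 17 dpp, Rpl39 (difference 0.82, adjusted p = 0.0253, limma) and Rps4x (0.67, adjusted p = 0.0264) passed and Rpl36a did not (0.62, adjusted p = 0.051).

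**Figure D4:**
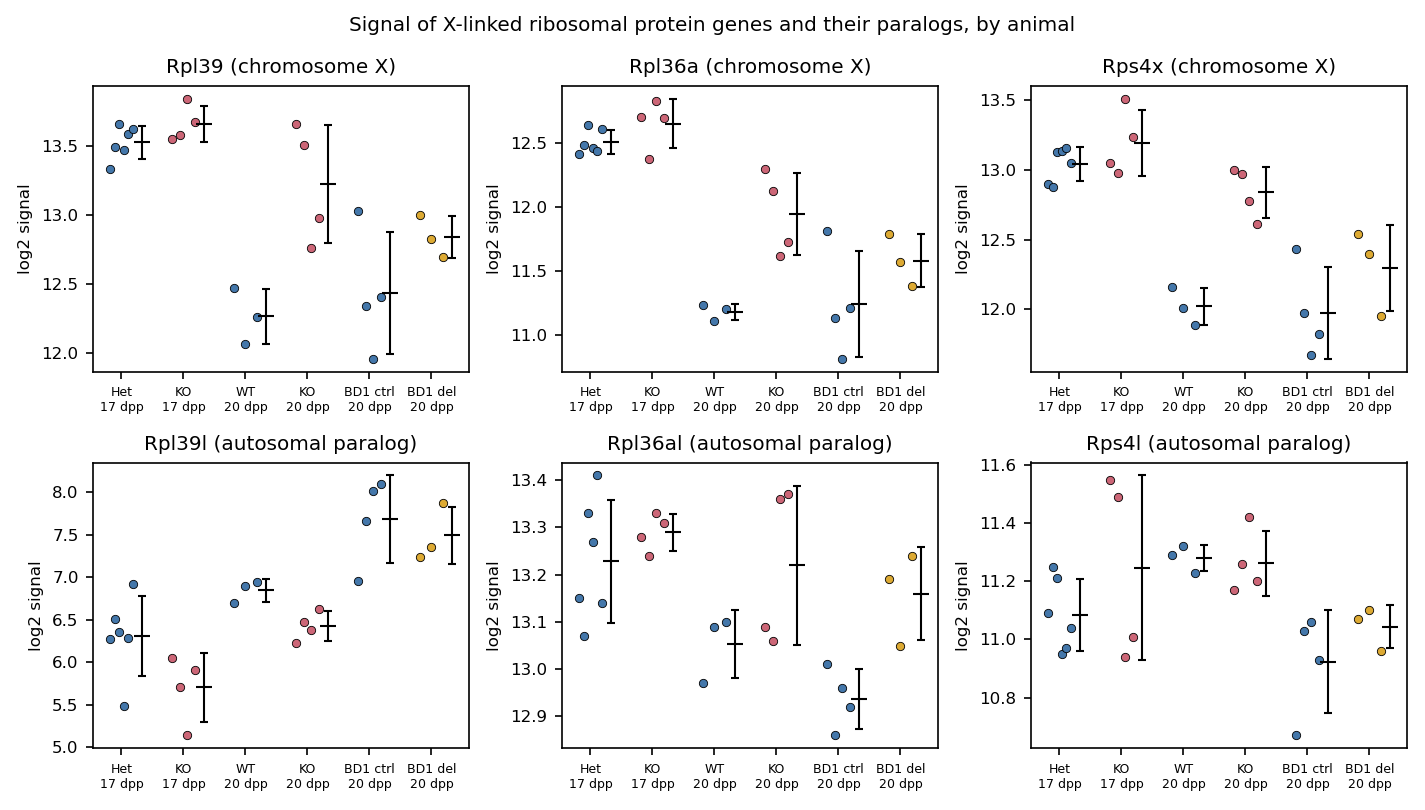
Log2 signal of the 3 X-linked ribosomal protein genes (top) and their autosomal relatives (bottom) in each animal, by group, with the mean and SD as bars; each panel has its own y range. The X-linked genes separate 20 dpp knockouts from wild types, and Rpl39l, Rpl36al and Rps4l were not called in any of the 4 comparisons of groups in the main fit.

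Their autosomal relatives did not pass the test in any comparison of groups in the main fit. Some alternatives of the processing gained a call. In the 20 dpp knockout these were 4 of 22 for Rpl36al, with changes from -0.08 to 0.31, and 2 of 22 for Rpl39l. With maturation they were 3 of 18 for Rpl39l, 2 of 18 for Rps4l and 1 of 18 for Rpl36al. Rpl39l was 6.69, 6.9 and 6.94 in 20 dpp wild types, 6.22, 6.47, 6.38 and 6.63 in knockouts, and 5.49 to 6.92 (median 6.33) in 17 dpp heterozygous animals, and it was detected on 33 of 36 arrays. All 20 dpp knockouts lay below all wild types, the reverse of Rpl39, with a log2 change of -0.42 ± 0.28 (adjusted p = 0.196, limma). The changes were -0.60 ± 0.23 in the 17 dpp knockout (adjusted p = 0.209), -0.19 ± 0.28 in the deletion (adjusted p = 0.658) and 0.53 ± 0.26 with maturation (adjusted p = 0.067). Against the shift of all genes the maturation change was 0.79 and passed (adjusted p = 0.0106). Rpl39l also separated control groups of the same age: it was 6.96, 7.66, 8.01 and 8.09 in the controls of the bromodomain line, all above the wild types of the knockout line.

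Rpl36al was 12.97, 13.09 and 13.1 in 20 dpp wild types. In the knockouts it was 13.09 and 13.06 in litter 2 and 13.36 and 13.37 in litter 1, so the groups overlap and the litters are in the opposite order to Rpl39 (log2 change 0.17 ± 0.09, adjusted p = 0.114). The litter 1 knockouts lay above every wild type, all of the same litter. The maturation change of Rpl36al was -0.17 ± 0.08 (adjusted p = 0.0639), beside -1.33 for Rpl36a. Rps4l was 11.29, 11.32 and 11.23 in the wild types and 11.17, 11.26, 11.42 and 11.2 in the knockouts, overlapping ranges (log2 change -0.02 ± 0.13, adjusted p = 0.908). Its maturation change was 0.20 ± 0.12 (adjusted p = 0.144), and against the shift of all genes it was 0.45 (adjusted p = 0.0024). Differences between an X-linked gene and its copy were not tested. Sequences of the probes were not used, so whether a probe binds RNA of both members of a pair is not known here.

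The other paralogs took several courses. Rpl22, a large-subunit protein known in mice to repress its own paralog Rpl22l1, was 10.02, 9.85 and 9.73 in 20 dpp wild types and 10.83, 10.72, 10.73 and 10.53 in knockouts, with no overlap and with little between the litters. Its log2 change was 0.84 ± 0.13 in the knockout at 20 dpp, a 1.78-fold increase (adjusted p = 3.67e-05, limma), and 0.50 ± 0.13 in the deletion (adjusted p = 0.0188), where the animals were 10.47, 10.36 and 10.23 against 10.21, 9.76, 9.56 and 9.88. The call in the deletion was lost without control 195, control 196, deletion animal 193 or deletion animal 197. Rpl22 fell with maturation by 0.78 ± 0.12 (adjusted p = 1.15e-05). Rpl22l1 was 5.38, 5.42 and 5.94 in wild types and 5.59, 5.89, 5.21 and 5.32 in knockouts, which overlap (log2 change -0.08 ± 0.22, adjusted p = 0.777), and it was detected on 25 of 36 arrays. Only in the groups of the bromodomain line was it detected on 6 of 6 arrays.

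By its brighter probe Rpl7l1, a paralog of Rpl7, was called higher in both mutants at 20 dpp. It was 10.24, 9.89 and 9.94 in wild types and 10.76, 10.66, 10.55 and 10.42 in knockouts (log2 change 0.58 ± 0.10, adjusted p = 0.000134, limma), and 9.86, 9.94, 9.54 and 9.71 in controls and 10.08, 10.11 and 10.18 in deletion animals (0.36 ± 0.10, adjusted p = 0.029). Neither pair of groups overlaps, and the knockouts also exceeded the 17 dpp heterozygous range of 10.31 to 10.43 in 3 of 4 animals. The call in the deletion was lost without control 196, control 219 or any 1 of the 3 deletion animals, and with probes of a gene averaged. The dimmer probe of Rpl7l1 was called in neither mutant when all detected probes were fitted by limma. Its changes were 0.36 in the knockout (adjusted p = 0.155) and 0.17 in the deletion (adjusted p = 0.617). Rps27l, a paralog of Rps27 known in human cells as a target of p53, was 13.81, 13.85 and 13.69 in wild types and 14.2, 14.15, 14.25 and 14.06 in knockouts, with no overlap (log2 change 0.38 ± 0.08, adjusted p = 0.000528). In the deletion its change was 0.22 ± 0.08 (adjusted p = 0.0833).

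Rpl3, which shapes the peptidyl transferase centre, rose by 0.33 ± 0.10 in the knockout at 20 dpp (adjusted p = 0.006, limma), from 13.96, 13.82 and 13.75 to 14.3, 14.27, 14.01 and 14.12. Every knockout exceeded every wild type, and the call was lost with litter as a block. Rpl3l, its paralog known from striated muscle, was 6.9, 6.74 and 6.72 in wild types and 7.49, 7.33, 7.31 and 6.92 in knockouts, a small gap between the groups. Its change of 0.48 ± 0.19 (adjusted p = 0.0331) was lost without wild type 149 or 157, or without knockout 139, 140 or 148, and with litter as a block. With maturation Rpl3 fell by 0.56 ± 0.09 (adjusted p = 1.4e-05) and Rpl3l fell by 0.69 ± 0.17 (adjusted p = 0.00138).

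Rplp0, Rplp1 and Rplp2 form the acidic stalk of the large subunit, which recruits translation factors. Rplp0 was 9.37, 9.44 and 9.31 in 20 dpp wild types, 9.86, 9.76, 9.73 and 9.77 in knockouts and 9.2 to 9.58 (median 9.27) in 17 dpp heterozygous animals. The knockouts were above both control groups, and the difference between the control groups did not pass the test (log2 change with maturation 0.07 ± 0.09, adjusted p = 0.522). Against the shift of all genes the maturation change was 0.32 and passed (adjusted p = 0.00437). The knockout change was 0.41 ± 0.10 (adjusted p = 0.00171), a call lost against that shift (0.16, adjusted p = 0.185), and the deletion change 0.33 ± 0.10 (adjusted p = 0.0368), the latter lost without control 195, 196 or 219 or without deletion animal 193 or 197. Rplp1 was 15.21, 15.1 and 15.16 in wild types and 15.35, 15.31, 15.27 and 15.28 in knockouts (log2 change 0.15 ± 0.05, adjusted p = 0.0151). The call was lost without wild type 149, with litter as a block and within litter 1, and against the shift of all genes the change was -0.10 (adjusted p = 0.112). Over the alternatives the change of Rplp1 ran from -0.10 to 0.27, the latter with median scaling, so its size depended on the processing. In the deletion Rplp1 was 15.25, 15.24 and 15.18 against 15.09, 14.97, 15.03 and 15.05 in controls, with no overlap (0.19 ± 0.05, adjusted p = 0.0178), a call lost without control 195 or without deletion animal 193 or 197. Rplp2 was 13.27, 13.08 and 13.14 in wild types and 13.59, 13.56, 13.48 and 13.26 in knockouts, with knockout 152 just below wild type 146 (log2 change 0.31 ± 0.08, adjusted p = 0.00296), and the call was lost within litter 1.

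Among the remaining genes Rps3a1, which encodes a small-subunit protein, had the largest maturation change of the 57. It ran from 10.03 to 10.68 (median 10.32) in 17 dpp heterozygous animals and was 8.97, 8.63 and 8.74 in 20 dpp wild types, a fall of 1.55 ± 0.18 on the log2 scale (adjusted p = 3.39e-07, limma). In the 20 dpp knockouts it was 10.02 and 10.06 in litter 2 and 9.16 and 9.26 in litter 1, all above the wild types, with the litters 0.43 (litter 1) and 1.26 (litter 2) above them. The knockout change was 0.85 ± 0.20 (adjusted p = 0.00118). Rps16, whose tail reaches the transfer RNA in the peptidyl site, fell with maturation by 1.05 ± 0.12 (adjusted p = 1.57e-07) and rose by 0.57 ± 0.13 in the knockout (adjusted p = 0.00079), from 12.69, 12.52 and 12.52 to 13.36, 13.36, 12.91 and 12.96. The groups do not overlap.

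Rps9, a small-subunit protein that bears on decoding accuracy, and Rps26, which lines the exit channel of the mRNA, were higher in both mutants at 20 dpp. Rps9 was 13.54, 13.44 and 13.47 in wild types, 13.98, 13.95, 13.98 and 13.77 in knockouts, 13.41, 13.3, 13.11 and 13.32 in controls of the deletion and 13.69, 13.65 and 13.63 in deletion animals. No pair overlaps, and the log2 changes were 0.44 ± 0.07 in the knockout (adjusted p = 5.27e-05, limma) and 0.37 ± 0.07 in the deletion (adjusted p = 0.00108). The call in the deletion was lost when only these groups were fitted (adjusted p = 0.066). A dimmer probe of Rps9 had 0.37 in the knockout (adjusted p = 0.00677) and 0.28 in the deletion (adjusted p = 0.106). Rps26 was 13.22, 13.21 and 13.33 in wild types, 13.76, 13.64, 13.45 and 13.53 in knockouts, 13.19, 13.04, 12.97 and 13.13 in controls of the deletion and 13.5, 13.4 and 13.29 in deletion animals. Its changes were 0.34 ± 0.08 (adjusted p = 0.00175) and 0.31 ± 0.08 (adjusted p = 0.0183), and the second was lost without control 195 or 196 or without deletion animal 193 or 197.

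Size of change went with probe brightness. Among the 26 ribosomal genes in the top 1% of signals the median change in the 20 dpp knockout was 0.24 and 14 were called higher, and among the 31 dimmer ones it was 0.41 and 19 were called. With maturation the medians were -0.36 and -0.55. Over all 115 genes in the top 1% of signals the knockout median was 0.12, with 50 higher and 20 lower. The part of brightness in these differences was not tested.

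**Figure D5:**
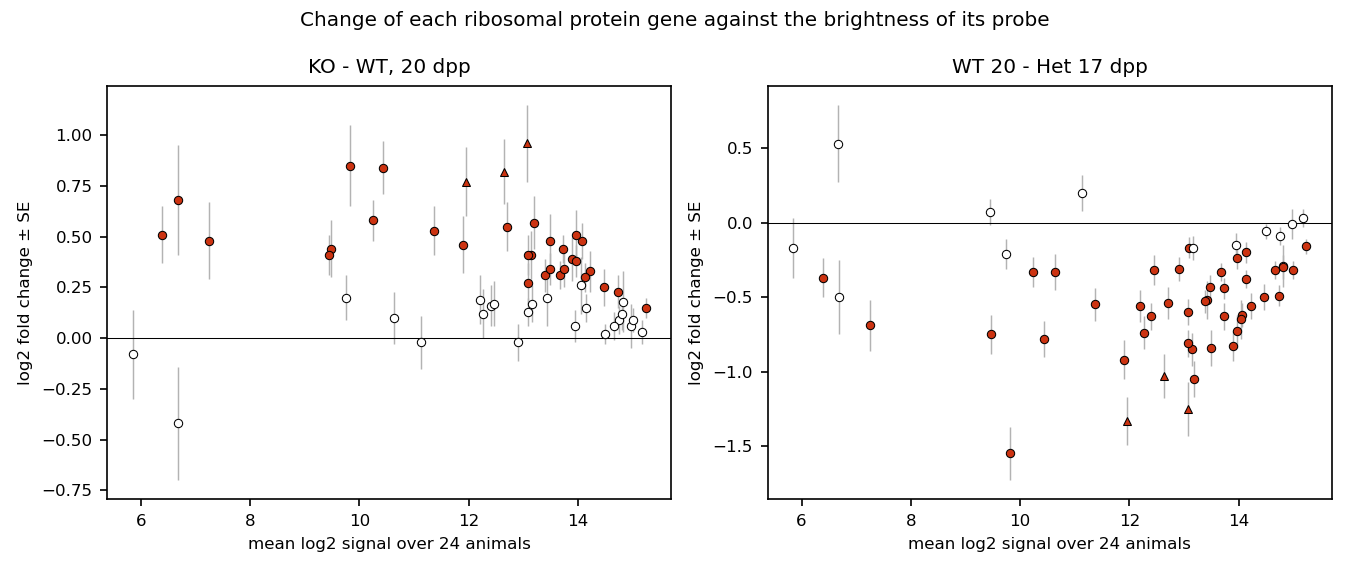
Log2 fold change (± SE) of each of the 57 ribosomal protein genes against its mean log2 signal over 24 animals, for the knockout at 20 dpp (left) and for maturation (right). Red symbols passed an adjusted p under 0.05, triangles are the 3 X-linked genes, and the brightest probes, at the right of each panel, lie on the whole nearer to 0.

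For 16 of the 57 genes more than 1 probe was tested, 37 probes in all. In the 20 dpp knockout 23 of the 37 were called higher and 0 lower when all 21190 detected probes were fitted, and all probes of a gene had one sign in 13 of the 16. The share of all 21190 probes called is not given here. With 1 probe a gene, 39.4% of all genes were called higher and 20.7% lower. The choice of probe still mattered for some genes, picked here after their values were seen. The brightest probe of Rpl23 had a change of 0.06 (adjusted p = 0.634), while its other probes had 0.50 (adjusted p = 0.00035) and 0.65 (adjusted p = 0.00548). For Rpl38 the brightest probe had 0.09 (adjusted p = 0.288) and the other 0.49 (adjusted p = 0.00287). With probes of a gene averaged, 38 of the 57 were called higher, and the share of all genes in that fit is not given here.

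Litter moved with the knockout values at 20 dpp. Against the 3 wild types, all of litter 1, the 2 knockouts of litter 1 had a median change over the 57 genes of 0.21, equal to that of all genes (0.21), and 50 of 57 were above 0. The 2 knockouts of litter 2 had a median of 0.41 against 0.26 over all genes, and 51 of the 57 had the larger change in litter 2. Within litter 1 alone 24 were called higher, and with litter 2 knockouts alone 37. Both counts are given without those of all genes in the same fits. They cannot tell a move of the ribosomal genes from a move of all calls. At 17 dpp the within-litter medians were 0.05, 0.05 and 0.07, and for the deletion they were 0.11 in litter 4, 0.30 in litter 5 and 0.13 in litter 6. Testis weights at 20 dpp were 18 to 21.5 mg in the knockouts and 22 to 23.8 mg in the wild types, and the part of weight was not tested.

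Other genes of the translation machinery were counted from lists drawn up beside the ribosomal genes. In the 20 dpp knockout 39.4% of all genes were higher and 20.7% lower (median 0.24). With maturation 25.9% of all genes were higher and 45.5% lower (median -0.25). Of 55 measured genes of ribosome biogenesis, 33 were higher and 5 lower in the 20 dpp knockout (median log2 change 0.43), and 6 were higher and 36 lower with maturation (median -0.43). Gar1, a component of the particles that pseudouridylate ribosomal RNA, rose by 0.76 ± 0.11 in the knockout (adjusted p = 7.18e-06, limma), and so did Ddx21, a nucleolar helicase, by 0.76 ± 0.16 (adjusted p = 0.000432). Sbds, which helps release Eif6 from the large subunit, fell by 0.98 ± 0.16 (adjusted p = 4.38e-05) and rose with maturation by 1.42 ± 0.15 (adjusted p = 6.5e-08). Of 16 translation factors and other genes with the pyrimidine start, 5 were higher and 1 lower in the knockout (median 0.14), with Eef1b2, a guanine exchange factor for the elongation factor, at 0.50 ± 0.12 (adjusted p = 0.00137) and Btf3, a part of the nascent chain complex, at -0.29 ± 0.09 (adjusted p = 0.00877). Of 72 mitochondrial ribosomal protein genes 35 were higher and 5 lower (median 0.27), beside 0.30 for the cytosolic ones. In the bromodomain deletion the biogenesis list had 2 higher (Gar1 and Imp3) and 1 lower (Sbds), the translation factor list 0 of either, and the mitochondrial list 3 higher and 1 lower. Of all genes 3.23% were higher there and 6.4% lower. At 17 dpp all 3 lists had 0 called (0.199% of all genes higher and 1.14% lower).

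Markers of testis cell types were counted in the same comparisons, beside 39.4% of all genes higher and 20.7% lower in the 20 dpp knockout. In the 20 dpp knockout 11 of 13 measured Sertoli cell genes were higher and 0 lower, and their summed signal, in units of 1000 as for the lists that follow, was 110 to 122.7 against 74.1 to 87.4 in wild types. Of 11 spermatogonial genes 9 were higher and 0 lower (4.51 to 5.82 against 2.89 to 3.38), and of 6 Leydig cell genes 3 were higher (11.8 to 16.1 against 6.53 to 10.7). Of 9 peritubular and blood cell genes 2 were higher (29.4 to 72.6 against 34.1 to 68.4). Of 12 round spermatid genes 11 were lower (0.775 to 1.22 against 7.41 to 14.7), 5 of the 12 being detected on no knockout array, and of 13 pachytene and diplotene spermatocyte genes 6 were lower and 1 higher (79.9 to 125.8 against 159.5 to 168.9). The part of cell composition in the ribosomal changes was not tested.

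With maturation 12 of 13 Sertoli genes and 8 of 11 spermatogonial genes were lower, 12 of 12 round spermatid genes were higher, and 8 spermatocyte genes were higher and 1 lower. Of the Leydig genes 2 were lower and 0 higher, and of the peritubular and blood cell genes 6 were lower and 2 higher. Of all genes 45.5% were lower and 25.9% higher. Summed signals in the 17 dpp heterozygous animals were 111.2 to 121.3 for the Sertoli genes, 6.16 to 8.22 for the spermatogonial genes, 54.1 to 107.8 for the spermatocyte genes, 5.66 to 9.02 for the Leydig genes and 29.4 to 44.7 for the peritubular and blood cell genes. For the round spermatid genes they were 0.718 to 1.00, with 8 of the 12 detected on no array. In the 17 dpp knockout 2 spermatocyte genes were lower, Adam3 and Tdrd6, and no other list had a call. Of all genes 1.14% were lower there and 0.199% higher.

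In the bromodomain deletion 9 of 12 round spermatid genes were lower, at 1.26 to 1.85 against 2.98 to 12 in controls, with 6 of the 12 detected on no deletion array. There 1 of 13 Sertoli genes, Sox9, was higher (summed signal 89.9 to 110.4 against 65.7 to 97.9), as was 1 of 11 spermatogonial genes, Sohlh1 (3.37 to 4.22 against 2.41 to 3.61), and 1 of 13 spermatocyte genes, Ccna1, was lower (128.2 to 152.6 against 143.6 to 170.3). The Leydig genes (10.1 to 10.8 against 5.87 to 10.8) and the peritubular and blood cell genes (25.6 to 31.7 against 18.8 to 33.5) had 0 called. Of all genes 3.23% were higher in the deletion and 6.4% lower. The part of cell composition was not tested here either.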

How the data were processed

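Amplified RNA of whole testis was hybridised to Illumina bead arrays, 36 arrays of 24 animals. Arrays of the same mouse number were averaged, since the labels do not say whether they repeat 1 RNA extract. Per the submitters' processing notes GenomeStudio 2011.1 was used. The authors deposited linear intensity values that were not normalized, each with a detection p-value. Background subtraction by the authors is not stated in the labels. A deposited matrix of the authors' normalized intensity values served as an alternative only. All 108 columns were used.

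Background correction, quantile normalization and the log2 transform used neqc of limma 3.58.1 (offset 16; R 4.3.3, statmod 1.5.0). Probes were named through the platform annotation (34885 with 1 symbol, 18 with several, the latter unnamed) with symbols updated by Entrez identifier. Probes detected (p under 0.01) in at least 3 animals were kept, 21190 in all, and each gene was given its brightest probe. A linear model over the 6 groups was fitted to the 11529 genes (lmFit, then eBayes with a trend on intensity). Tests were two-sided with Benjamini-Hochberg adjustment over all genes, and measure the spread between animals. The code was tested on simulated data. The test against the shift of all genes took the median change of all genes from each change.

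Genes named are the paralogs and their parents, the X-linked genes, the stalk proteins, Brdt, the top 5 called genes by size of change in each direction whose animals did not overlap, and up to 3 called genes of each other list. Rpl10a, Rpl21, Rpl23, Rpl35, Rpl37, Rpl38, Rpl41, Rps2, Rps3, Rps13 and Rps14 fall outside this rule and were named after their values were seen. The genes and lists were chosen with earlier results of these data known. Promoter windows were RefSeq's, and a gene held a string if any of its windows did. The strings and the printed promoters were picked after the data were seen. Alternatives were another background correction, scaling, matrix, probe choice and filter, centring, litter, replicate and brightness blocks, the comparison's groups alone, and leaving out each animal.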

Additional observations from a re-analysis of the deposited data

Results flagged for a closer look

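An animal was taken as set apart where its gap to the nearest other animal, divided by the whole range of its group, exceeded Dixon's critical value, which chance alone passes in about 1 in 20 groups. This held in 3 of 76 combinations of a named gene and a group of at least 4 animals. Rpl3l in 17 dpp knockout 73 was 7.97 against 7.7 to 7.73 in the other knockouts. Rplp0 in 17 dpp heterozygous animal 126 was 9.58 against 9.2 to 9.29. Rps9 in 20 dpp knockout 152 was 13.77 against 13.95 to 13.98.

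The knockout effect differed between 17 and 20 dpp by limma's test of the difference for 18 of the 57 genes, all with the larger change at 20 dpp, where 12.4% of all genes had a larger and 11% a smaller one. The 18 became 3 with litter as a block and 1 against the median change of all genes. Among the named ones the effect at 20 dpp exceeded that at 17 dpp by 0.82 for Rpl39, 0.83 for Rps3a1, 0.67 for Rps4x, 0.58 for Rpl22, 0.51 for Rps16, 0.48 for Rpl7l1, 0.44 for Rps27l, 0.40 for Rps9 and 0.32 for Rps26 on the log2 scale. The controls differ in genotype between the ages, heterozygous at 17 and wild type at 20 dpp.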

How the results depend on the processing

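The count of 33 genes higher in the 20 dpp knockout lay between 23 and 38 under each alternative processing, probe choice, filter or blocking. It was 31 when only brighter arrays were used and 23 with only dimmer ones. Among the knockouts the dimmer arrays were all of litter 1, and the arrays of litter 2 were all brighter. Brightness and litter therefore cannot be told apart in these counts. The count was 37 with the knockouts limited to litter 2, still set against the wild types of litter 1. In that contrast genotype and litter cannot be told apart. With 1 animal left out the count lay between 28 and 33. The 44 lower with maturation lay between 36 and 47, and between 41 and 46 with 1 animal left out. Taking off the median change of all genes, chosen after the data were seen, moved both: 10 higher and 4 lower in the knockout, 7 higher and 28 lower with maturation, 1 higher in the deletion and 1 for the difference between ages, and it turned the sign of Rplp1 (-0.10 in the knockout, 0.09 with maturation) and Rps27l (0.02 with maturation). Counts of higher genes with maturation, 0 in the text, were 2 with median scaling, 1 with the replicate block and 0 to 1 with 1 animal left out. For the deletion the 8 became 5 without the detection filter, 21 with litter as a block, 23 with the replicate block, 0 with these groups alone, 1 against heterozygous and 24 against wild-type controls, and 1 to 23 with 1 animal left out. The 18 of the difference between ages became 8 without the filter, 3 with litter as a block and 3 to 23 with 1 animal left out. The difference between deletion and knockout gave 0 to 1 higher with 1 animal left out. At 17 dpp litter as a block gave 2. In the 20 dpp knockout 1 gene was lower with these groups alone and 1 with brightness as a block. The causes were not tested, and these counts are given without the counts of all genes called in the same alternatives. Array replicate numbers were not taken as pairs in the main fit. Correlations of same-numbered arrays ran from -0.15 to 0.66. At 17 dpp they were 0.41, 0.66, 0.19 and 0.41 for replicates 1, 3, 5 and 6, which joined littermates. For replicates 2 and 4, which joined different litters, they were -0.07 and -0.15. In the deletion comparison 5 of the 6 pairs lay at 0.28 to 0.48. Whether the numbers mark pairs cannot be told from these values. The replicate block left 33 genes higher in the knockout, took the deletion's 8 to 23 and the difference between ages from 18 to 13. Of 1501 combinations of a named gene, a comparison and an alternative, 73 lost a call, 36 gained one, 3 called changes turned sign, and 27 uncalled ones did. Litter could not be a block for maturation, which shares no litter between ages.

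The values rest on 3 to 6 animals a group, on probes whose sequences were not used here, and on RNA of whole testis. Signal of near-identical copies and processed pseudogenes was not separated. The brightest array value was 48895.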
